A study of Macaca mulatta with 6 samples.

Results

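The genes described here encode the semaphorins and their plexin receptors, the ephrins and their Eph receptors, the Slits and their Robo receptors, and the netrins with their UNC5 receptors. They were taken by gene symbol, with no value deciding membership, and 65 of the 24941 gene names in the table met the rule (117 of 44605 transcripts). The set was put together, and SEMA7A singled out, with results of this serum comparison already known. The values and calls below are therefore a description. SEMA7A is given without a p-value, although its call enters the counts of genes called. One more member of the Eph family, EPHA10, is in the table by identifier only and stood at 0 in all libraries.

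The RNA came from RF/6A, a choroidal cell line of the rhesus macaque that the submitters call endothelial, grown to confluency on porous inserts. All cells received 50% human serum for 4 hours. In the heat-inactivated serum group (labelled CONTROL, 3 libraries) the complement activity of the serum had been removed by heating, and in the normal serum group (labelled MAC, for membrane attack complex, 3 libraries) complement was active. The comparison asks what active complement does to these cells, but no library had complement blocked in another way, so complement and other heat-labile serum components cannot be told apart. RF/6A is a single cell line, the labels do not say that replicates were separate cultures, and the spread behind each p-value may therefore be only technical.

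As background, these families were named for steering growing axons, and the same ligands and receptors guide blood vessels. Semaphorins signal through plexins, the secreted class 3 semaphorins mostly with a neuropilin as co-receptor. Ephrins are anchored in the membrane of one cell and bind Eph receptor tyrosine kinases on its neighbour, whereas Slits and netrins are secreted matrix-associated ligands of Robo receptors and of DCC, neogenin and UNC5 receptors. Many of these receptors act on the actin cytoskeleton and on cell adhesion.

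Values are FPKM, fragment numbers scaled to transcript length and library size, summed over the transcripts of a gene. From the steps between the lowest values, the libraries of replicates 2 and 3 held about 14670000 to 17860000 fragments. The replicate 1 libraries of both groups did not follow whole-fragment steps (44.2% and 40.9% of low values whole within 0.1 fragments, against 100% in the others and 20% by chance), and their depth is only approximate. Of 9 endothelial markers found, only PECAM1 and ESAM reached a mean of 1 FPKM, and the defining endothelial cadherin CDH5 was listed at 0 in heat-inactivated serum and at 0.0110 FPKM on average in normal serum. The summed endothelial markers, mostly PECAM1 and ESAM, went from between 6.49 and 7.47 FPKM to between 13.6 and 15.4 FPKM. The list did not move as one. Below a mean of 1 FPKM, VWF was higher in every normal serum library (means 0.172 and 1.05 FPKM) and KDR lower (0.370 and 0.105 FPKM). All 7 fibroblast and mural markers found were expressed and lower in normal serum, their sum going from between 6686 and 7230 FPKM to between 3151 and 3290 FPKM. Of the other marker lists, the summed neuronal markers went from between 8.67 and 10.99 to between 15.8 and 16.1 FPKM (RBFOX3 at 0). The leukocyte markers went from between 85.8 and 94.3 to between 104 and 109 FPKM (mostly ITGB2, with PTPRC at most 0.0509 FPKM). LYZ among them was called lower, at 7.82 and 5.17 FPKM. The epithelial markers went from between 5.30 and 6.48 to between 2.59 and 3.33 FPKM. That fall was carried by CDH1 (5.54 to 2.03 FPKM), while KRT8, KRT18 and RPE65 were higher on average but under 1 FPKM. These sums moved with the serum treatment, and their part in the results below was not tested. In such bulk RNA a gene's lower value can mean, among other things, fewer cells of a type or less RNA per cell, and these cannot be told apart.

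Of the 65 guidance genes, 39 had a mean of at least 1 FPKM over the 6 libraries and entered the test across all genes. Of these, 12 were called higher in normal serum and 17 lower, and 10 were not called (limma on log2(FPKM + 1), Benjamini-Hochberg adjusted p under 0.05 over 11819 genes). SEMA7A is among the 12. Across all genes tested 54.0% were called, 27.8% higher and 26.1% lower. The median log2 difference of the 39 genes was -0.14, against 0.01 over all genes tested. The values of the 3 normal serum libraries lay above all heat-inactivated serum libraries in 13 of the 39 genes (32.1% of all genes tested) and below them in 18 (30.5%). Differences of 2-fold or more, measured in log2(FPKM + 1), were called higher for 2 genes, SEMA7A and EPHA2 (3.47% of all genes), and lower for 2, ROBO1 and EFNB3 (2.56%). The FPKM totals were 852828 and 867794 in replicates 1 and 2 of heat-inactivated serum. They were 1007949 in its replicate 3 and 980877 to 1016474 in normal serum. Values and folds are given without rescaling. When all libraries were set to 1 common FPKM total, the median of all genes moved to -0.12. The share of higher among all calls moved from 51.6% to 34.7%, and the guidance genes to 8 higher and 17 lower of 40 tested.

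**Figure D1:**
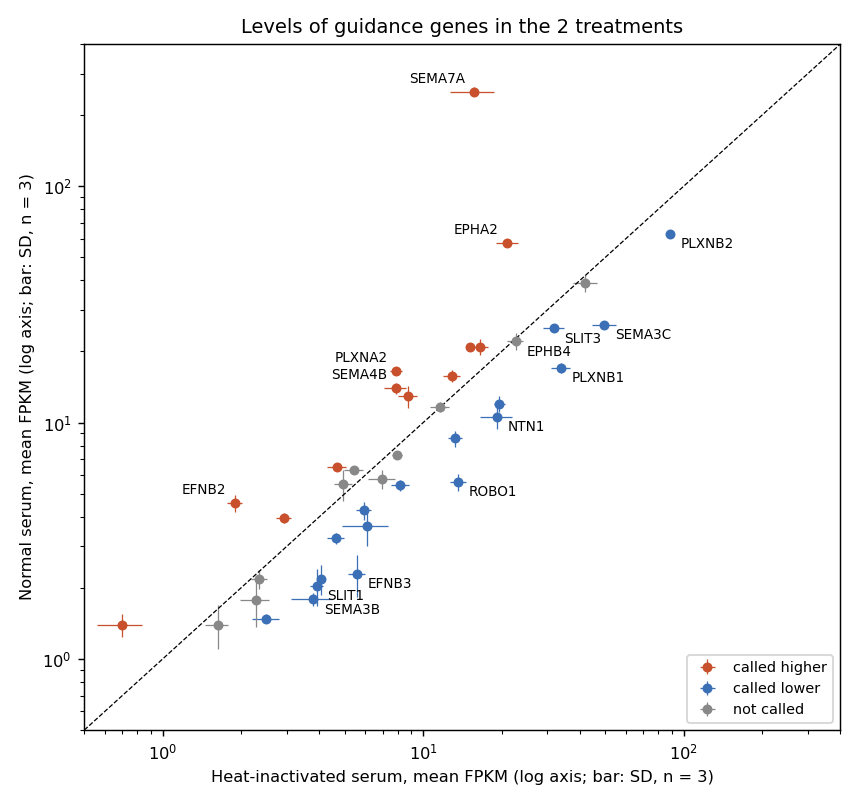
Mean FPKM of the 39 guidance genes tested, in heat-inactivated serum (x axis, log scale) and normal serum (y axis, log scale), with SD over 3 libraries as bars, equality as a dashed line and color for the call. SEMA7A lies farthest above the line at 15.7 and 251 FPKM, EPHA2 next among the abundant genes, and PLXNB1, SEMA3C, NTN1 and ROBO1 below it.

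SEMA7A, a semaphorin held in the membrane by a glycosylphosphatidylinositol anchor, was the guidance gene with the largest difference. Its level was 17.9, 17.0 and 12.3 FPKM in the heat-inactivated serum libraries and 253, 239 and 261 FPKM in the normal serum libraries. The groups were far apart, and the lowest normal serum library exceeded the highest control library many times over. The ratio of the means was 16.0 (15.7 ± 3.00 and 251 ± 11.1 FPKM, SD, n = 3), and the log2 difference of 3.93 ranked 13th of the 11819 genes tested, highest first. The table holds a single SEMA7A transcript of 2070 bases on chromosome 7, so no isoforms were summed. About 537 and 339 fragments stood behind the value in replicates 2 and 3 of heat-inactivated serum, and about 6789 and 8770 in those of normal serum. Among the 65 genes SEMA7A ranked 11th by level in heat-inactivated serum and first in normal serum. It made up 2.28% to 3.19% of the summed FPKM of all guidance genes in heat-inactivated serum and 33.8% to 34.7% in normal serum. Without SEMA7A, the sum of the guidance genes was 515 to 547 FPKM in heat-inactivated serum and 469 to 491 FPKM in normal serum, lower in every normal serum library, whereas with it the sum was higher.

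The known receptors of SEMA7A are plexin C1 and the integrin formed by the ITGA1 and ITGB1 products. PLXNC1 was low throughout, at 0.823, 0.778 and 0.881 FPKM in heat-inactivated serum and 0.395, 0.320 and 0.286 FPKM in normal serum. The groups did not overlap, and the heat-inactivated serum mean was 2.48 times the normal serum mean, opposite in direction to SEMA7A. About 92 and 91 fragments in replicates 2 and 3 of heat-inactivated serum and 34 and 36 in those of normal serum carry the PLXNC1 value. With a mean of 0.580 FPKM it did not enter the test, and without a filter on low values it was called lower (adjusted p = 0.00171). ITGA1 was called higher, at 35.7 ± 3.22 and 42.8 ± 2.80 FPKM, by a small difference (log2 0.26 ± 0.08, SE, limma adjusted p = 0.0328). Whether that call held with libraries set to a common FPKM total was not recorded for this gene. ITGB1, the shared beta subunit, was abundant and not called, at 378 ± 14.4 and 390 ± 37.0 FPKM (log2 difference 0.04 ± 0.08, SE).

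**Figure D2:**
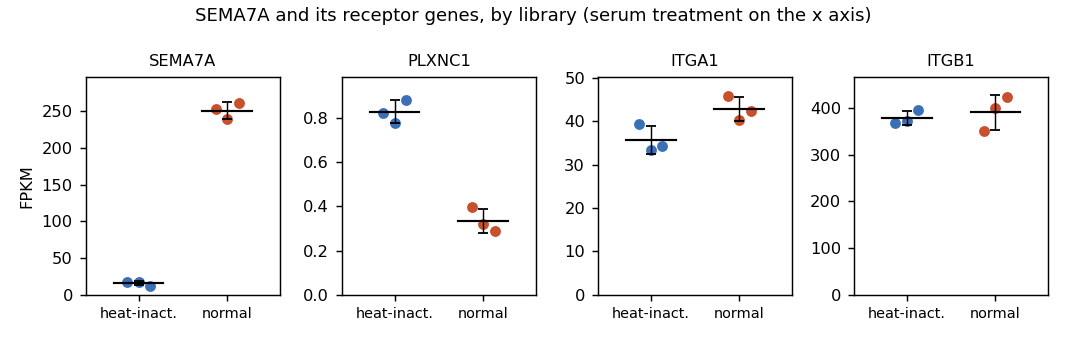
FPKM of SEMA7A and its receptor genes PLXNC1, ITGA1 and ITGB1 (y axes, each from 0) in the heat-inactivated serum (blue) and normal serum (orange) libraries, with mean and SD (n = 3). SEMA7A is 16.0-fold higher in normal serum, PLXNC1 is lower and under 1 FPKM in all libraries, and ITGB1 overlaps between the groups.

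Of the 7 secreted class 3 semaphorins 5 were tested, of which 3 were called lower in normal serum and 1 higher (26.1% and 27.8% of all genes tested). SEMA3C, which signals through neuropilins with plexins and was the second most abundant guidance gene in heat-inactivated serum, stood there at 53.8, 43.9 and 51.2 FPKM, and at 26.4, 25.4 and 26.2 FPKM in normal serum. It thus fell to 0.524 of its control level, with every normal serum library below every control library. SEMA3B, likewise a neuropilin ligand, fell from 3.90, 4.404 and 3.06 FPKM to 1.81, 1.66 and 1.89 FPKM, again without overlap. SEMA3D fell from 5.92 ± 0.376 to 4.26 ± 0.364 FPKM, a call that ended when its most abundant transcript alone was used (adjusted p = 0.0531). SEMA3F, a ligand of neuropilin 2, was called higher, at 0.696 ± 0.138 and 1.398 ± 0.159 FPKM. Its overall mean of 1.05 FPKM was just above the filter, which it passed through the normal serum libraries alone, and it dropped out of the test when any normal serum library was left out. The most abundant SEMA3F transcript (3521 bases) went the other way on average, from 0.582 to 0.488 FPKM. The summed rise came mostly from a transcript of 3220 bases, at 0.112 and 0.904 FPKM. SEMA3A, the founding member that repels axons through neuropilin 1, was not called, at 5.42 ± 0.469 and 6.29 ± 0.0348 FPKM. SEMA3E, the ligand of plexin D1, stood at 0.697 ± 0.147 and 0.945 ± 0.184 FPKM with overlapping groups, and SEMA3G was at most 0.0351 FPKM. Summed over the class, the libraries held 61.1 to 69.7 FPKM in heat-inactivated serum and 39.7 to 41.3 FPKM in normal serum.

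The membrane-spanning semaphorins moved both ways. In class 4, SEMA4B rose from 7.27, 7.60 and 8.71 FPKM to 13.3, 13.8 and 14.9 FPKM, 1.78-fold, with no overlap between the groups. SEMA4C, a plexin B2 ligand, was higher by 0.28 ± 0.08 (log2, SE), a call that was lost on leaving out heat-inactivated serum replicate 2 or 3 (adjusted p = 0.0667 and 0.0633) or normal serum replicate 1 (0.0575), and with libraries set to a common total (0.336). SEMA4D, which binds plexin B1, fell from 8.18 ± 0.669 to 5.44 ± 0.274 FPKM, and SEMA4F from 4.61 ± 0.350 to 3.24 ± 0.163 FPKM. The SEMA4D call ended with only its most abundant transcript (adjusted p = 0.181), and the SEMA4F call within replicates 2 and 3 (adjusted p = 0.0532). The low SEMA4A went from 0.234 ± 0.0779 to 0.642 ± 0.0971 FPKM, and SEMA4G stood at 0.437 and 0.438 FPKM.

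Among classes 5 and 6, SEMA5A, which carries thrombospondin repeats outside the cell, fell from 4.07 ± 0.134 to 2.18 ± 0.309 FPKM. Its relative SEMA5B was called in the opposite direction, at 2.92 ± 0.182 and 3.95 ± 0.199 FPKM, but not within replicates 2 and 3 (adjusted p = 0.0797), on leaving out heat-inactivated serum replicate 3 (0.0511) or after rescaling (0.170). SEMA6A, a ligand of A-type plexins, fell from 2.50 ± 0.288 to 1.48 ± 0.0634 FPKM. It was lower by a similar amount within replicates 2 and 3 (log2 difference -0.42, against -0.49 in all libraries) but no longer called there (adjusted p = 0.0567), nor with its highest transcript alone (adjusted p = 0.0763). SEMA6B was the most abundant of these, at 42.0 ± 4.47 and 38.8 ± 3.13 FPKM, and was not called. Its only model in the table is 774 bases long, so its level relative to other genes rests on a short model. SEMA6C was not called either (2.28 ± 0.286 and 1.78 ± 0.423 FPKM), and SEMA6D stayed below the filter at 0.352 and 0.618 FPKM.

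**Figure D3:**
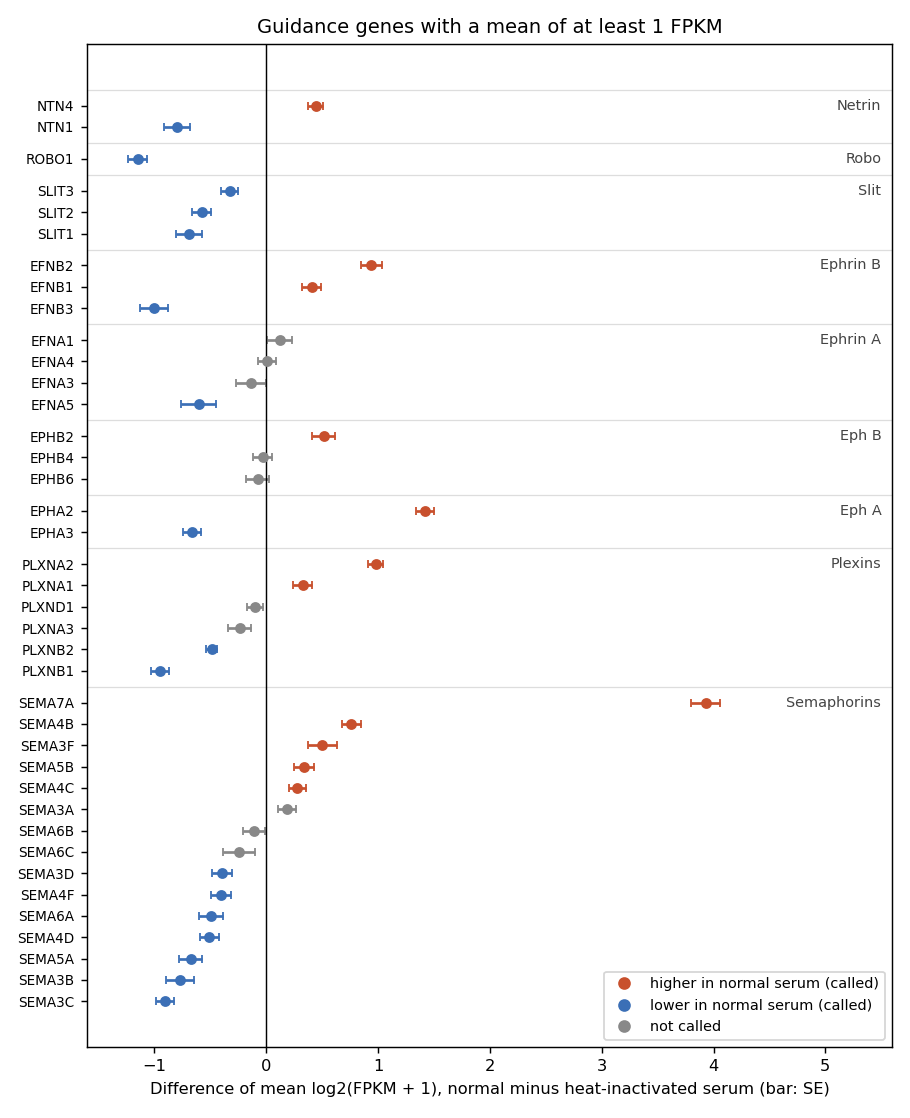
Difference of mean log2(FPKM + 1), normal minus heat-inactivated serum, with SE (x axis), for the 39 guidance genes tested, grouped by family (y axis) and colored by the call. The Slits and ROBO1 lie below 0, the other families with several genes tested hold different directions or genes not called, and SEMA7A stands at 3.93.

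Of the 9 plexins, the semaphorin receptors, 6 were tested, 2 of them called higher and 2 lower (27.8% and 26.1% of all genes tested). PLXNA2, a receptor of class 3 and class 6 semaphorins, was at 8.29, 7.503 and 7.87 FPKM in heat-inactivated serum and at 16.7, 16.0 and 16.7 FPKM in normal serum. That is a 2.09-fold rise with tight groups. PLXNA1, a neuropilin partner, was higher by 0.33 ± 0.08 (log2, SE), which was not called after rescaling (adjusted p = 0.260), and PLXNA3 was lower in every normal serum library but not called, at 6.98 ± 0.814 and 5.76 ± 0.545 FPKM. PLXNB1, the SEMA4D receptor, fell from 36.7, 34.1 and 30.9 FPKM to 17.4, 16.1 and 17.5 FPKM. Every normal serum library held close to 0.502 of the control mean, and SEMA4D, its ligand, was lower in the same libraries.

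PLXNB2, the most abundant guidance gene in heat-inactivated serum, stood at 89.5, 88.9 and 86.9 FPKM there and at 62.8, 62.0 and 63.7 FPKM in normal serum. The spread within a group was small, and the gene fell to 0.710 of its control level. Its 2 transcripts were both lower on average, the longer one (6282 bases) going from 38.4 to 21.7 FPKM and the shorter (3721 bases) from 50.1 to 41.2 FPKM. PLXND1, a receptor of SEMA3E prominent in vessels, was not called, at 7.94 ± 0.362 and 7.32 ± 0.190 FPKM. PLXNB3 was at most 0.161 FPKM and PLXNA4 at most 0.0199 FPKM. The neuropilin co-receptors went in opposite directions, with NRP1 called higher (4.31 ± 0.232 to 5.82 ± 0.223 FPKM) and NRP2 lower (15.3 ± 1.12 to 4.59 ± 0.744 FPKM). The NRP1 difference was much the smaller (log2 0.36 ± 0.08, SE, against -1.55 ± 0.11). Whether the NRP1 call held after rescaling was not recorded. The plexins together held 156 to 169 FPKM in heat-inactivated serum and 126 to 134 FPKM in normal serum.

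Of the 39 guidance genes tested, EPHA2 had the second-largest log2 difference, although by ratio of means the low, untested UNC5B (6.35) and EFNA2 (4.43) stood higher. EPHA2, a receptor of ephrin A1 with a known part in vessel assembly, went from 22.5, 21.9 and 18.7 FPKM to 58.1, 58.5 and 56.8 FPKM. The normal serum libraries were within a narrow range and 2.75-fold above the control mean, with about 995 to 1333 fragments behind the control values and 3203 to 3679 behind the others in replicates 2 and 3. EPHA3, another A-type receptor, fell from 19.6 ± 0.963 to 12.01 ± 0.944 FPKM, so that the A-type receptors at similar control levels moved apart. Of 13 Eph genes 5 were tested, 2 called higher and 1 lower (27.8% and 26.1% of all genes tested). EPHB2 rose from 8.74 ± 0.747 to 12.9 ± 1.42 FPKM. EPHB4, known as the venous receptor of ephrin B2, was at 24.4, 21.2 and 22.4 FPKM and at 24.3, 20.8 and 21.2 FPKM. These groups overlapped almost completely (log2 difference -0.03 ± 0.08, SE). EPHB6, a receptor without kinase activity, was not called either, at 2.35 ± 0.161 and 2.18 ± 0.205 FPKM. EPHB3 lay just below the filter, at 1.14 ± 0.0971 and 0.710 ± 0.0489 FPKM, and EPHA1 at 0.485 ± 0.154 and 0.818 ± 0.0876 FPKM. EPHA4, EPHA7 and EPHA8 were at most 0.324 FPKM, and EPHA5, EPHA6 and EPHB1 were listed at 0 in all libraries.

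Of the ephrins, 1 of the 4 tested A-type ligands, which are held by a lipid anchor, was called lower. Of the 3 B-type ligands, which span the membrane, 2 were called higher and 1 lower (54.0% of all genes were called in either direction), and a difference between the types was not tested. EFNB2, the arterial ephrin, was at 1.93, 1.76 and 2.00 FPKM in heat-inactivated serum and at 4.22, 4.53 and 4.94 FPKM in normal serum, a 2.41-fold rise without overlap. EFNB1 was higher, at 5.04, 4.69 and 4.27 FPKM and at 6.45, 6.28 and 6.79 FPKM, but was not called after rescaling (adjusted p = 0.0976). EFNB3 went the other way, from 6.01, 5.21 and 5.49 FPKM to 2.64, 1.78 and 2.46 FPKM. The B-type ephrins thus changed order, with EFNB3 the highest of them in heat-inactivated serum on average and the lowest in normal serum.

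EFNA4 was the most abundant A-type ephrin and was at 10.7, 12.6 and 11.4 FPKM against 11.1, 12.2 and 11.6 FPKM. The groups overlapped, and the log2 difference was 0.01 ± 0.08 (SE), of either sign depending on the libraries and scaling used. EFNA1, the ligand of EPHA2, was not called at 4.93 ± 0.399 and 5.47 ± 0.825 FPKM, although its receptor gene rose. EFNA3 was also not called (1.62 ± 0.164 and 1.395 ± 0.295 FPKM). The 3 genes share chromosome 1. EFNA5 fell from 6.11 ± 1.25 to 3.67 ± 0.674 FPKM, with more spread than most. EFNA2 was below the filter at 0.150 ± 0.130 and 0.664 ± 0.386 FPKM.

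**Figure D4:**
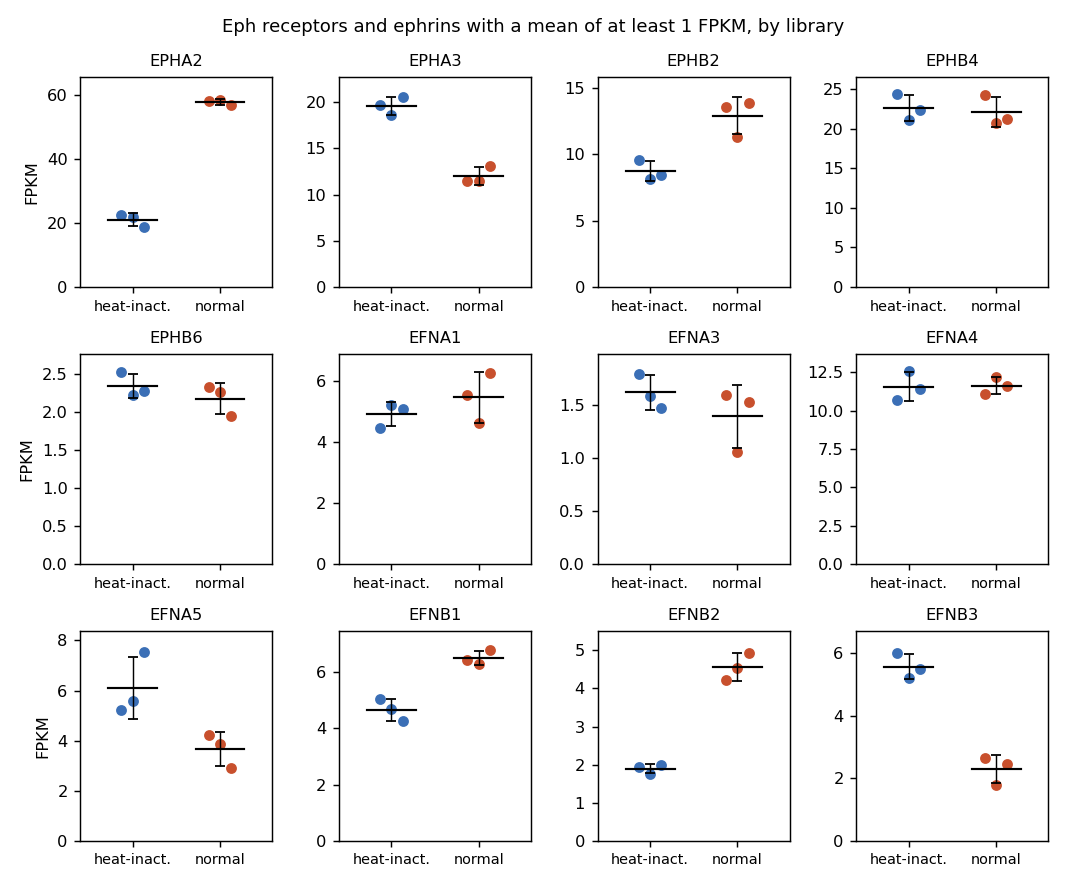
FPKM (y axes, each from 0) of the 12 Eph receptor and ephrin genes tested, by library, in heat-inactivated serum (blue) and normal serum (orange), with mean and SD (n = 3). EPHA2 and EFNB2 are higher in every normal serum library, EPHA3 and EFNB3 lower, and EPHB4 and EFNA4 overlap.

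The Slit and Robo genes were the families in which every gene tested was lower in normal serum, 4 of 4 (background 26.1%). SLIT3, the most abundant of the secreted Slits, was at 28.6, 34.4 and 32.1 FPKM in heat-inactivated serum and at 24.1, 25.4 and 25.5 FPKM in normal serum. SLIT2 fell from 13.3 ± 0.843 to 8.57 ± 0.687 FPKM. SLIT1 was at 3.69, 3.86 and 4.14 FPKM and at 1.73, 1.96 and 2.44 FPKM. In each of the 3 Slit genes the groups were separate, and the smallest of the changes was that of SLIT3, to 0.789 of the control mean. With only the most abundant transcript, the SLIT3 and SLIT1 calls ended (adjusted p = 0.0633 and 0.0522). The table lists 10 transcripts for SLIT1, and the estimates moved between them from library to library, one of 1887 bases standing at 0.996, 0.988 and 0.000926 FPKM in the control libraries, while the sum varied little.

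ROBO1, the main Slit receptor gene here, fell from 13.5, 12.7 and 14.7 FPKM to 5.13, 5.68 and 6.01 FPKM. The control mean was 2.43 times the normal serum mean, and the ranges were far apart. ROBO2, at 1.18 ± 0.118 and 0.794 ± 0.0474 FPKM, and ROBO3, which tempers Slit responses in commissural axons, at 1.06 ± 0.0917 and 0.689 ± 0.107 FPKM, lay below the filter and were not tested. ROBO2 with a mean of 0.987 FPKM was the first gene outside the filter, as SEMA3F was the first inside. ROBO4, the Robo of endothelial cells, was listed at 0 in 5 libraries and at 0.0276 FPKM in normal serum replicate 3. Together the Slits held 46.5 to 50.8 FPKM in heat-inactivated serum and 34.1 to 37.3 FPKM in normal serum, and the Robos 15.2 to 16.8 and 6.62 to 7.59 FPKM. The fibroblast and mural markers were lower in the same libraries (7 of 7, sums as above), and their part in the Slit and Robo values was not tested.

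The netrins, which resemble laminins, moved in opposite directions. NTN1, the classical netrin, fell from 22.3, 17.8 and 17.5 FPKM to 11.9, 9.90 and 9.88 FPKM. NTN4, a basement membrane netrin, rose from 15.6, 14.5 and 15.3 FPKM to 21.9, 20.4 and 20.5 FPKM. Neither gene's groups overlapped, and the more abundant of them was NTN1 in heat-inactivated serum and NTN4 in normal serum. NTN3 and NTN5 were at most 0.394 FPKM. Of the netrin receptors, UNC5B, the one known from vessels, was at 0.157, 0.165 and 0.146 FPKM and at 0.804, 1.02 and 1.14 FPKM. That is 6.35-fold higher between separate groups, though at a level too low to enter the test, and without the filter it was called (adjusted p = 5.74e-04). UNC5A and UNC5C were at most 0.241 FPKM, UNC5D and the attractive receptor gene DCC were listed at 0, and the related receptor gene NEO1 fell from 47.1 ± 1.91 to 34.7 ± 1.59 FPKM.

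**Figure D5:**
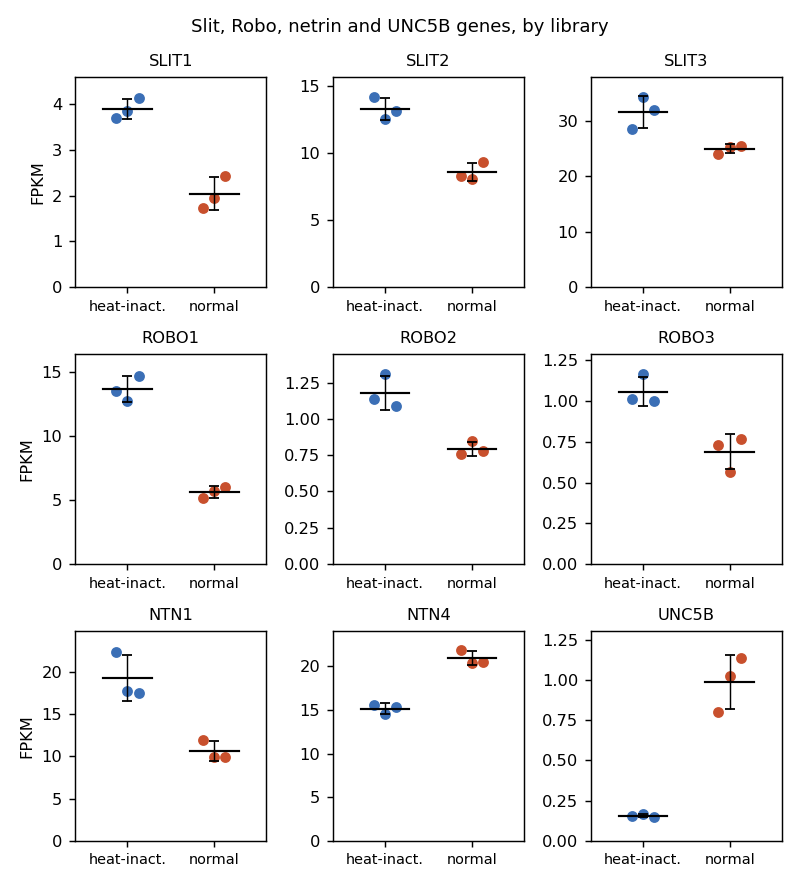
FPKM (y axes, each from 0) of Slit, Robo and netrin genes and UNC5B by library, in heat-inactivated serum (blue) and normal serum (orange), with mean and SD (n = 3). The Slits, ROBO1 to ROBO3 and NTN1 are lower in every normal serum library, and NTN4 and UNC5B are higher.

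In all, 26 guidance genes stayed below the mean of 1 FPKM, 4 of them listed at 0 in every library. When no filter was applied, 4 of these were called higher (EPHA1, SEMA4A, SEMA6D and UNC5B) and 4 lower (EPHB3, PLXNC1, ROBO2 and ROBO3), where 19.6% and 18.9% of 17175 genes were called. In the authors' deposited table, 7 transcripts of these genes carry all 3 marks of passing (expression, fold change and q-value), those of SEMA7A, EPHA2, EFNB2, PLXNA2, ROBO1, EFNB3 and SEMA3B. PLXNC1 and UNC5B have the marks for fold change and q-value but not for expression.

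Genes that act with these ligands and receptors also moved both ways. Of 82 genes in 4 lists of co-receptors, GTPase regulators, kinases and cytoskeletal effectors, and processing proteases, 64 were tested, 20 of them called higher and 14 lower (background 27.8% and 26.1%), with a median log2 difference of 0.02. After rescaling the numbers were 12 and 18, and after quantile normalization 18 and 21, so the balance of directions depends on the scaling. Of 12 co-receptors and other receptors tested 5 were higher and 6 lower. SDC1, a heparan sulfate carrier, rose from 47.0 ± 2.61 to 87.0 ± 1.497 FPKM and RGMB, a neogenin ligand, from 7.996 ± 0.449 to 12.5 ± 0.432 FPKM, while MET, which associates with B-type plexins, fell from 23.5 ± 0.511 to 16.8 ± 0.346 FPKM.

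Among 21 GTPases and regulators tested, 7 were higher and 3 lower, where 27.8% and 26.1% of all genes were. The same background holds for the other lists, and the split of calls over all 4 lists turned after rescaling, as given above. Of the 7 higher genes, RND1 reached the filter through its normal serum values, at 0.969 ± 0.783 and 3.41 ± 0.987 FPKM. RAC1 rose from 142 ± 6.65 to 197 ± 11.01 FPKM and CDC42 from 31.5 ± 1.89 to 46.0 ± 3.59 FPKM. ARHGEF12, an exchange factor that binds B-type plexins, fell from 13.6 ± 0.438 to 7.84 ± 1.19 FPKM, and DOCK1, a RAC activator, from 24.2 ± 0.818 to 14.6 ± 0.533 FPKM. Of 24 kinases, adaptors and effectors tested, 5 were higher, 4 lower and 15 not called. MICAL2, of the family of actin-oxidizing enzymes that act in plexin signalling, rose from 10.04 ± 0.315 to 24.7 ± 2.26 FPKM, and CFL1, the actin-severing cofilin, from 1096 ± 26.7 to 1781 ± 116 FPKM. NCK2, an adaptor of B-type ephrins, rose 1.67-fold, and DPYSL2, the semaphorin effector CRMP2, fell from 27.9 ± 1.95 to 11.8 ± 0.859 FPKM. Of 7 proteases tested 3 were higher and 1 lower. MMP9 and ADAMTS1, both already known to be higher in these data when the list was made, rose 19.5-fold and 5.29-fold. PCSK7, a proprotein convertase, was called higher at 17.2 ± 5.52 and 29.4 ± 6.33 FPKM, and ADAM10, which cleaves ephrins and their receptors, fell from 64.4 ± 2.93 to 44.9 ± 1.56 FPKM. FURIN was listed at 0 in all libraries, and whether its gene model plays a part in that value was not tested.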

How the data were processed

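Polyadenylated RNA of 6 libraries was analysed, 3 per serum treatment, grouped by their labels. The submitters' processing notes name Cuffdiff 2.1.1, Cufflinks 2.1.1 and TopHat2 2.0.7. The build was not given in the sources used here. For each transcript, the authors deposited its FPKM in each library, with their own q-value, p-value and log2 fold change. Transcripts were summed by symbol, so isoforms are not told apart, nor are overlapping genes or near-identical copies. Genes averaging 1 FPKM or more were tested on log2(FPKM + 1) with limma 3.58.1 in R 4.3.3 (trended empirical Bayes, Benjamini-Hochberg over all 11819 genes, adjusted p under 0.05), after the procedure was tested on simulated data. On this scale the differences of low genes are understated. Folds are ratios of mean FPKM.

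Members and lists were chosen with earlier results of these data known. All tested members are named. Values by library are given for the 12 largest differences and the most abundant gene of each family, and otherwise for PLXNC1, chosen as the receptor of SEMA7A. Up to 4 genes of each pathway list with the smallest adjusted p are named, with ITGA1, ITGB1, NRP1 and NRP2. DCC, NEO1, FURIN and RND1 were added after their values were seen. Of 82 pathway genes 81 were found. Fragment numbers were read from the steps of low values in single-transcript genes of 1800 to 2200 bases and corrected for effective length. Alternatives varied the pseudocount, filter, scaling, variance model, transcript summing, replicate block and libraries. No sequences are shown.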

Additional observations from a re-analysis of the deposited data

How the results depend on the processing

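Across 17 alternatives the SEMA7A log2 difference ranged from 3.77 to 4.03. Changes of filter, variance model or replicate block could not alter this difference, as they leave the difference of any tested gene as it is. Transcript summing could not alter it either, because SEMA7A has a single transcript. Of the 38 other genes tested, 23 kept their direction and their side of the threshold in every alternative that tested them. The numbers called, 12 higher and 17 lower, were 10 to 12 and 17 when 1 library at a time was left out, and 10 and 15 in replicates 2 and 3 alone. A mean of at least 5 FPKM left 26 genes in the test, with 9 higher and 10 lower. Pathway genes called higher numbered 12 after rescaling to the same total FPKM instead of 20. Changes of sign occurred in genes that were not called. After rescaling, EFNA1 stood at -0.000280 and EFNA4 at -0.125. EFNA4 was also at -0.0121 in replicates 2 and 3 alone. It ranged from -0.0431 to 0.0662 when 1 library at a time was left out, below 0 without heat-inactivated serum replicate 1 or normal serum replicate 2 (-0.0234). EPHB4 ranged from -0.100 to 0.0202, above 0 without these same libraries (0.0202 and 0.00806), and EPHB6 at 0.0641 after quantile normalization. SEMA3A was called higher after quantile normalization (adjusted p = 0.0284). With the replicate number as a replicate block the guidance genes gave the same numbers, 12 higher and 17 lower, and 6770 of all genes were called instead of 6381. Correlations of the deviations of same-numbered libraries were 0.193, 0.0328 and 0.00689. The replicate 1 libraries correlated best with each other and negatively with the other-numbered libraries of the opposite group (-0.135 to -0.0892). Both also departed from whole-fragment steps, as given above. Libraries of replicates 2 and 3 did not correlate best with their own number (0.107 and 0.0855 across numbers). The main model has no replicate term, and whether the replicate 1 libraries form a batch was not tested. Depth limits some genes below the filter, as NTN3 rests on 4 to 9 fragments and EPHA4 on 5 to 11 in replicates 2 and 3. Others there rest on more, such as PLXNC1 on 34 to 92 and ROBO3 on 35 to 80. No alternative tested whether the fall in fibroblast and mural markers bears on these results.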
